A study of Mus musculus with 36 samples.

Results

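Cyp2b9, Cyp2b10, Cyp2b13, Cyp2c40 and Cyp2c69 are 5 members of the Cyp2b and Cyp2c families of cytochrome P450 genes, and their transcripts differed widely between genotypes in mouse liver. They were chosen by those measured genotype differences, in these same mice, so each genotype difference of a member is given as a description, with no test. They are 5 of the 38283 genes in the deposited table. Liver RNA was sequenced from 36 male C57Bl/6J mice aged 16 weeks on chow, 6 in each of 6 groups. Wild-type mice were compared with heterozygous mice carrying the Y657* truncation of Pik3r1 in every tissue, labelled as the human Pik3r1 Y657x mutation and called WT/Y657* here. Mice of each genotype were studied fed, after a 16 h fast, or after 6 h of refeeding that followed the fast, with no other treatment in the labels. Mice are named as in their titles, WT_ or, for WT/Y657*, MT_ and a number. Pik3r1 encodes regulatory subunits of PI 3-kinase, and the targeted line was made from embryonic stem cells, backcrossed to C57Bl/6J and studied against wild-type littermates.

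Microsomal P450 enzymes of the Cyp2b and Cyp2c families oxidise steroids, fatty acids and foreign compounds in the hepatocyte, and take their electrons from the reductase Por. Cyp2b10 is the textbook target of the constitutive androstane receptor CAR, encoded by Nr1i3, which binds DNA with the retinoid X receptor Rxra. Cyp2b9, Cyp2b13, Cyp2c40 and Cyp2c69 are known as transcripts of female mouse liver that growth hormone pulses, acting through Stat5b, keep low in males.

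The members are close relatives, and the stretches just upstream of their starts show how close. Cyp2b10, Cyp2b13 and Cyp2b9 lie in this order on the plus strand of chromosome 7, and Cyp2c40 and Cyp2c69 lie next to each other on the minus strand of chromosome 19. In the GENCODE M21 annotation of GRCm38 they span chr7:25897620-25926624, chr7:26061497-26096197, chr7:26173411-26210661, chr19:39767071-39812814 and chr19:39842814-39886799, and all 5 are protein-coding. The 250 bases before the gene start are shown for the closest pair of each family, from RefSeq on GRCm38.p6, read 5′ to 3′ on the strand of the gene. Capitals mark the bases at which the members of a pair differ.
Cyp2b9, chr7:26173159-26173408, plus strand: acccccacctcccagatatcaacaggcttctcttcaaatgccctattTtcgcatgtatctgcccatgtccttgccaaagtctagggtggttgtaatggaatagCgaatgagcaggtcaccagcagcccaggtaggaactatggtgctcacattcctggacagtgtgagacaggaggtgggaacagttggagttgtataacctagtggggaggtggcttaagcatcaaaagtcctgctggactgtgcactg
Cyp2b13, chr7:26061245-26061494, plus strand: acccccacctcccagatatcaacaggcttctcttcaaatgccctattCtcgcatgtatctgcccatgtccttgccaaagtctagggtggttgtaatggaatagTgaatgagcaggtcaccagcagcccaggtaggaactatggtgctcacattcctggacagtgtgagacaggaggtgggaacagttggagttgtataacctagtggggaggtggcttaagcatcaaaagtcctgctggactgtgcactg
Cyp2c40, chr19:39812815-39813064, minus strand: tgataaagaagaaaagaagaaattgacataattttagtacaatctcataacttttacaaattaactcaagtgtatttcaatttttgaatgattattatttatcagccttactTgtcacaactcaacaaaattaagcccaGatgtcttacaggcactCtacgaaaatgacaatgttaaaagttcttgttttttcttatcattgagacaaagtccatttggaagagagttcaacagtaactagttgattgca
Cyp2c69, chr19:39886770-39887019, minus strand: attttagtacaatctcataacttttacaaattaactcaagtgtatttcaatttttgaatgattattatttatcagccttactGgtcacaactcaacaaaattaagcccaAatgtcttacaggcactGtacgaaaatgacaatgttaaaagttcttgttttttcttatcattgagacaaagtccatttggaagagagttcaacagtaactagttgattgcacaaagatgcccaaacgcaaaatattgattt

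The Cyp2b9 and Cyp2b13 stretches differed at 2 of 250 positions, an identity of 99.2%. The Cyp2c40 and Cyp2c69 stretches are offset from each other and differed at 3 of 220 aligned positions, an identity of 98.6%. The offset follows the annotations, since RefSeq starts Cyp2c69 inside the GENCODE span given above. Of its stretch, chr19:39886770-39886799 lies within that span. The stretch before Cyp2b10 was 70.5% identical to that of Cyp2b9.

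All 5 members had a 300-base promoter window, from 250 bases before the start to 50 after it, and 4 motifs were searched in it on both strands. CAAAGTCCA, a form of the HNF4A motif, was in the windows of Cyp2c40 and Cyp2c69, and in 0.475% of the 32851 mouse promoter windows of the same length. ATTGAT, which HNF6 and CUX proteins can bind, was also in both, after the RefSeq start in Cyp2c40, and in 7.54% of all windows. Its place relative to the start depends on the annotation used. The STAT5 motif TTCNNNGAA was in none of the 5 windows and in 8.30% of all windows, and the forkhead motif GTAAACA was in none of the 5 and in 3.65% of all. None of these motifs overlapped another in the members.

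The transcripts were less alike within Cyp2b than within Cyp2c. The longest protein-coding transcripts of Cyp2c40 and Cyp2c69 were 97.7% identical, those of Cyp2b9 and Cyp2b13 89.1%, and those of Cyp2b9 and Cyp2b10 86.1%. The reads were single and short, so the share of 50-base words that a member holds in common with another gene shows where reads cannot be told apart. Of the words of Cyp2c40, 60.3% were also in another gene, 36.7% in Cyp2c69, 30.2% in Cyp2c67 and 26.8% in Cyp2c68. Of the words of Cyp2c69, 54.3% were also in another gene, and 46.5% were in Cyp2c40. The share was 27.3% for Cyp2b13, with 13.8% in the predicted gene Gm45225 and 10.8% in Cyp2b9, and 11.2% for Cyp2b9 and 8.70% for Cyp2b10. How the authors counted a read that fits several genes is not given in the sources used here, so the split between Cyp2c40 and Cyp2c69 is uncertain. No exon of another annotated gene overlapped those of a member.

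Library totals ranged from 8839481 to 19542778 counts, with a median of 13596664. Values are CPM, the usual unit of counts relative to the library's total, here after scaling of the totals by edgeR's TMM method, and 3 counts were worth at most 0.349 CPM in any library. Pik3r1, whose transcript sums both alleles, ranged from 115 to 182 CPM in the fed WT/Y657* mice and from 119 to 158 in the fed wild-type mice. Hepatocyte markers, among them Alb, were tested 6 of 6 and summed to between 53921 and 96460 CPM in every library. Each library was male by its sex-chromosome genes, with 969 to 2319 counts of Ddx3y and at most 7 of Xist. Fed mice carried numbers from 1 series, whereas fasted and refed mice carried numbers from 2 others, 3 mice of each genotype in each, so feeding state and number series cannot be told apart for any contrast with fed mice. The labels do not say whether the mice were separate litters or cages. Fewer cells that express a gene and less RNA per cell cannot be told apart in bulk liver.

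**Figure D1:**
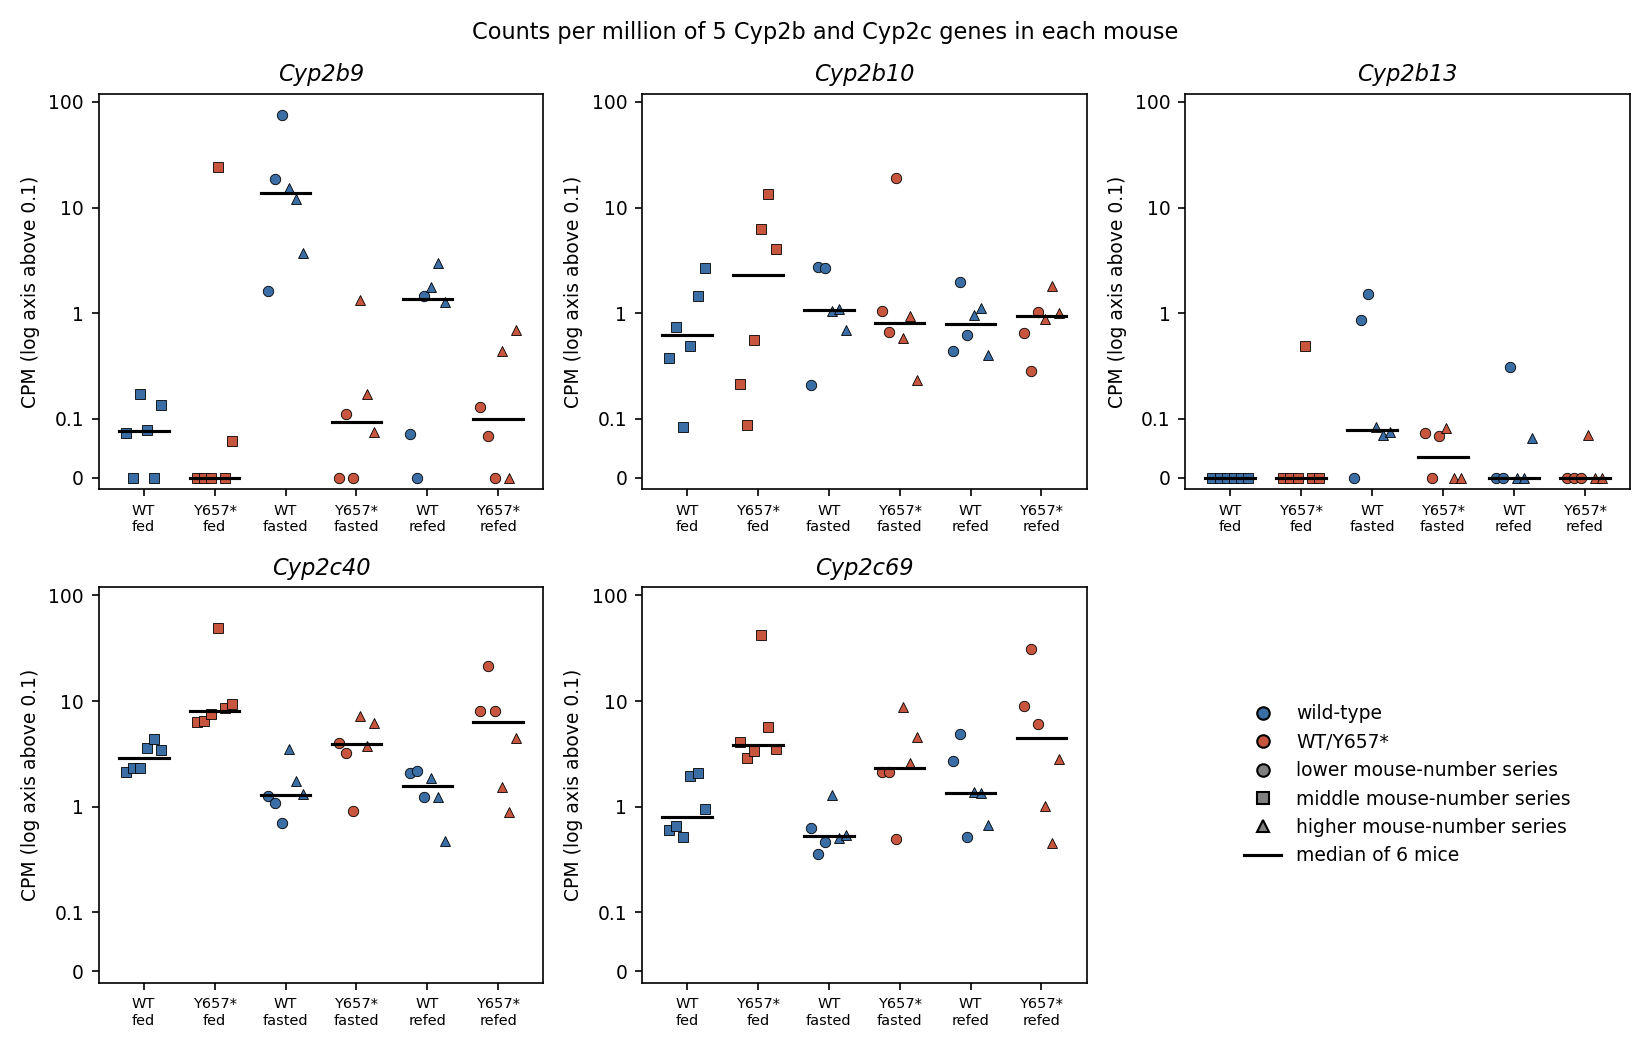
CPM (log axis above 0.1) of the 5 genes in each of 36 mice, by genotype and feeding state. Each point is 1 mouse, the point shape gives its mouse-number series and the black line is the median of 6 mice. Cyp2b9 was at 1.61 CPM or more in all 6 fasted wild-type mice and at 1.34 or less in all 6 fasted WT/Y657* mice, and Cyp2c40 and Cyp2c69 were above every fed wild-type mouse in all 6 fed WT/Y657* mice.

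All members were weakly expressed in these males. Per kilobase of exon, Cyp2c40 had the highest median of the 5 in the 3 WT/Y657* groups and in fed wild-type mice, at 1.42 CPM per kb in fed wild-type and 3.98 in fed WT/Y657* mice. Cyp2b9 led in fasted wild-type mice at 7.32 CPM per kb, and Cyp2c69 led narrowly in refed wild-type mice at 0.795, beside 0.763 for Cyp2c40. Cyp2b13 was lowest or tied for lowest in all 6 groups. On this scale the ranges over mice of Cyp2c40 and Cyp2c69 overlapped in all 6 groups, as did those of Cyp2c69 and Cyp2b10. Their ranges thus did not separate these neighbours in the order, and the order within each mouse was not tested.

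Cyp2b9, a steroid hydroxylase, was at 2 counts or fewer in 11 of 12 fed mice, WT/Y657* mouse MT_866 being the exception at 24 CPM, and was present in all 6 fasted wild-type mice. In fed wild-type mice it was at 0, 0.0786 and 0.171 CPM (lowest, median and highest of 6), which is at most 2 counts per library. In fasted wild-type mice it was at 1.61, 13.7 and 75.0 CPM, and in fasted WT/Y657* mice at 0, 0.0940 and 1.34 CPM. All 6 fasted WT/Y657* mice lay below every fasted wild-type mouse. The mean was 21.1 ± 27.2 CPM (SD, n = 6) against 0.283 ± 0.522 (n = 6), which is 74.4-fold higher in wild-type mice, and the fitted log2 difference was -6.19 (SE 1.37). For comparison, the groups did not overlap for 5.04% of the 13945 genes tested in the fasted state, and for 2.48% the WT/Y657* mice were the lower. Wild-type mouse WT_825 held 645 of the 1320 Cyp2b9 counts in its group, and without it the wild-type mean was 10.3 ± 7.34 CPM (n = 5). Within the lower-numbered series the 3 wild-type mice ranged from 1.61 to 75.0 CPM and the 3 WT/Y657* mice from 0 to 0.111. Within the higher-numbered series they ranged from 3.69 to 15.3 and from 0.0771 to 1.34, so the groups were apart in both, with fitted log2 differences of -9.55 and -4.27. Without mouse MT_921, the highest of the fasted WT/Y657* mice, the fitted difference was -8.12.

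After 6 h of refeeding Cyp2b9 was lower again in wild-type mice. It was at 0, 1.36 and 2.99 CPM in refed wild-type mice and at 0, 0.0999 and 0.691 CPM in refed WT/Y657* mice. The refed groups, which did not overlap for 0.624% of genes tested, overlapped here, because wild-type mouse WT_816 had no count and mouse WT_815 had 0.0739 CPM. The fitted log2 difference was -2.61 (SE 1.61).

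In the fed state a single WT/Y657* mouse decided the direction for Cyp2b9. Mouse MT_866 had 344 counts, or 24 CPM, 1 other WT/Y657* mouse had 0.0630 CPM, and 4 had none, where 3 counts would have been at most 0.269 CPM in any library of the group. The fitted log2 difference was 5.47 (SE 1.76) with mouse MT_866 and -1.99 (SE 2.87) without it, so no direction was given by the other mice.

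Cyp2b13, the other female-type Cyp2b gene, could hardly be measured. It did not pass the filter on low counts, so 4 of the 5 members were tested across genes. No count was found in the 6 fed wild-type mice, which allows up to 0.0407 CPM over the group. Counts above 3 were found in 3 mice of the 36, namely fasted wild-type mice WT_825 and WT_824, at 1.51 and 0.859 CPM, and fed WT/Y657* mouse MT_866, at 0.488 CPM from 7 counts. These same 3 mice had the 3 highest levels of Cyp2b9, at 75.0, 18.5 and 24 CPM. The fasted wild-type mean was 0.435 ± 0.618 CPM (n = 6) and the fasted WT/Y657* mean 0.0382 ± 0.0421 (n = 6), and the groups overlapped.

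Cyp2b10, the CAR target, ranged widely among mice of a group. It was at 0.0853, 0.618 and 2.69 CPM in fed wild-type mice and at 0.0896, 2.29 and 13.5 CPM in fed WT/Y657* mice. WT/Y657* mice MT_868, MT_866 and MT_869 stood above every fed wild-type mouse, and the other 3 lay within the wild-type range. The fitted log2 difference was 2.05 (SE 0.94).

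In fasted mice Cyp2b10 was at 0.210, 1.06 and 2.72 CPM in wild-type livers and at 0.231, 0.803 and 19.1 CPM in WT/Y657* livers. The median was lower and the mean higher in WT/Y657* mice, since mouse MT_827 alone had 272 of the group's 313 counts. The fitted log2 difference of 1.49 (SE 0.92) became -0.97 without mouse MT_827. Refed mice ranged from 0.405 to 1.98 CPM in wild-type and from 0.286 to 1.80 CPM in WT/Y657* livers, with a fitted log2 difference of 0.04 (SE 1.03).

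Cyp2c40, an arachidonic acid hydroxylase, had a higher median in WT/Y657* mice in all 3 states. It was at 2.12, 2.88 and 4.36 CPM in fed wild-type mice and at 6.31, 8.10 and 49.3 CPM in fed WT/Y657* mice. All 6 fed WT/Y657* mice lay above all 6 fed wild-type mice, which was so for 0.495% of genes tested, and for 1.07% in either direction. The fitted log2 difference was 2.27 (SE 0.59), and 1.34 (SE 0.51) without mouse MT_866, the highest of the group. Even without that mouse, the lowest WT/Y657* value of 6.31 CPM lay above the highest wild-type value of 4.36.

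In the other states the Cyp2c40 groups overlapped. It was at 0.698, 1.28 and 3.55 CPM in fasted wild-type mice and at 0.912, 3.88 and 7.29 CPM in fasted WT/Y657* mice, 4 of which lay above every wild-type mouse. It was at 0.472, 1.55 and 2.16 CPM in refed wild-type mice and at 0.898, 6.26 and 21.2 CPM in refed WT/Y657* mice, again with 4 above every wild-type mouse. The fitted log2 differences were 1.39 (SE 0.66) and 2.29 (SE 0.63).

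Cyp2c69 showed the same order of groups in the fed and fasted states, at lower CPM. It was at 0.512, 0.798 and 2.09 CPM in fed wild-type mice and at 2.87, 3.82 and 42.0 CPM in fed WT/Y657* mice, with no overlap. The fitted log2 difference was 3.18 (SE 0.86), and 1.80 (SE 0.76) without mouse MT_866. It was at 0.358, 0.522 and 1.30 CPM in fasted wild-type mice and at 0.491, 2.34 and 8.71 CPM in fasted WT/Y657* mice, 5 of which lay above every wild-type mouse. It was at 0.515, 1.36 and 4.83 CPM in refed wild-type mice and at 0.449, 4.42 and 31 CPM in refed WT/Y657* mice, 3 of which lay above every wild-type mouse. The fitted log2 differences were 2.43 (SE 0.98) and 2.14 (SE 0.80).

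The refed values of both Cyp2c genes moved with the mouse-number series. In the lower-numbered series the 3 refed WT/Y657* mice ranged from 8.07 to 21.2 CPM of Cyp2c40 and from 6.00 to 31 CPM of Cyp2c69, above the 3 wild-type mice at 1.24 to 2.16 and 0.515 to 4.83. In the higher-numbered series the 3 refed WT/Y657* mice ranged from 0.898 to 4.45 CPM of Cyp2c40 and from 0.449 to 2.84 CPM of Cyp2c69, and overlapped the 3 wild-type mice at 0.472 to 1.87 and 0.675 to 1.37. In fasted mice the order was the other way, with WT/Y657* mice of the higher-numbered series at 3.76 to 7.29 CPM of Cyp2c40 and those of the lower-numbered series at 0.912 to 4.01. The part of the number series in these values was not tested.

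The other Cyp2c genes of the table passed between genotypes at about the share of all genes. Of 11 that could be tested, none passed the threshold in fed or refed mice, where 2.37% and 0.0287% of all genes did. In fasted mice 1 of 11 passed, beside 13.1% of all genes. That gene was Cyp2c29, an abundant hepatic P450, which fell in WT/Y657* mice from 655 ± 91.8 to 429 ± 122 CPM (n = 6 each), a log2 change of -0.61 (SE 0.17, adjusted p = 0.0151, edgeR). Every adjusted p called edgeR's here came from its quasi-likelihood test and was adjusted over all genes by Benjamini and Hochberg's method. Cyp2c54, Cyp2c50 and Cyp2c37 had larger fasted differences that did not pass, at -1.09 (SE 0.38), -1.01 (SE 0.35) and -0.95 (SE 0.41). Their adjusted p were 0.0579, 0.0527 and 0.126 (edgeR). Of the fasted differences above 0 the largest was that of Cyp2c70, at 0.37 (SE 0.24, adjusted p = 0.325, edgeR). Cyp2c68, which shares 50-base words with both members, had a log2 difference of 0.47 (SE 0.19) in the fed state and 0.30 (SE 0.19) in the fasted state, with adjusted p = 0.169 and 0.309 (edgeR). Cyp2c67 had 0.31 (SE 0.14) and 0.15 (SE 0.14), with adjusted p = 0.245 and 0.544 (edgeR). Both were far more abundant than Cyp2c40, with means of 92.1 and 121 CPM in fed wild-type mice beside 3.02, and the part of their reads in the values of Cyp2c40 and Cyp2c69 was not tested.

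Feeding state, averaged over both genotypes, was not the contrast by which the members were chosen, and it moved 1 member past the threshold. The same mice enter both contrasts, and 1 extreme mouse can enlarge both, so the call is not free of that choice. Cyp2c40 fell with fasting, from a mean of 8.82 to 2.92 CPM over both genotypes, a log2 change of -1.34 (SE 0.44, adjusted p = 0.0133, edgeR). That is 1 of 4 members tested, beside 43.8% of all genes tested, 23% lower and 20.8% higher. Cyp2c69 changed by -1.20 (SE 0.67), with a 95% interval from -2.51 to 0.10 and adjusted p = 0.147 (edgeR). Cyp2b10 had 0.17 (SE 0.65, interval from -1.11 to 1.45) and Cyp2b9 had 2.02 (SE 1.43, interval from -0.79 to 4.83), and neither passed.

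Both of these results rested on fed WT/Y657* mouse MT_866. Without it the fall of Cyp2c40 was -0.88 (SE 0.37, adjusted p = 0.0539, edgeR), and Cyp2b9 rose by 5.75 (SE 1.28, adjusted p = 0.000493, edgeR). The remaining 5 fed WT/Y657* mice then held 1 count of Cyp2b9, so the size of this fitted change depends on the prior count and is no bound. On log2 CPM with a prior count of 2, the fasted minus the fed mean of Cyp2b9 was 5.67 for the wild-type genotype and -0.34 for WT/Y657*, mouse MT_866 included. On this scale mouse MT_866 was at 4.59 and the other 5 fed WT/Y657* mice at -2.75 to -2.24. The fasted WT/Y657* mice ranged from -2.75 to 0.57 and held 20 counts in all. The sign of the WT/Y657* value thus rested on mouse MT_866.

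Refeeding against fasting moved no member past the threshold, where 43.4% of all genes passed, and refeeding against feeding moved none, where 41% did (edgeR). Cyp2c69 had a log2 change of 1.43 (SE 0.63, adjusted p = 0.0685) with refeeding, from a mean of 2.03 to 5.14 CPM, and Cyp2b9 and Cyp2b10 had -2.18 (SE 1.30, adjusted p = 0.183) and -1.30 (SE 0.69, adjusted p = 0.131). Cyp2c40 had 0.35 (SE 0.46, adjusted p = 0.573). At an unadjusted threshold of 0.05 edgeR would have called 1 member in each, Cyp2c69 against fasting and Cyp2c40 against feeding. DESeq2's Wald test called both, with adjusted p = 0.0221 and 0.0371. The Cyp2c69 change also passed without fed WT/Y657* mouse MT_866 (1.43, adjusted p = 0.0291), refed WT/Y657* mouse MT_898 (1.56, adjusted p = 0.0385) or MT_897 (1.55, adjusted p = 0.0452), and fasted WT/Y657* mouse MT_921 (1.70, adjusted p = 0.0347). The Cyp2c40 change against feeding passed without refed WT/Y657* mouse MT_814 (-1.33, adjusted p = 0.00921) or fed WT/Y657* mouse MT_857 (-1.07, adjusted p = 0.0498). Cyp2b9 passed without mouse MT_866 in both contrasts, at -2.18 (adjusted p = 0.0357) and 3.57 (adjusted p = 0.0350), all by edgeR.

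**Figure D2:**
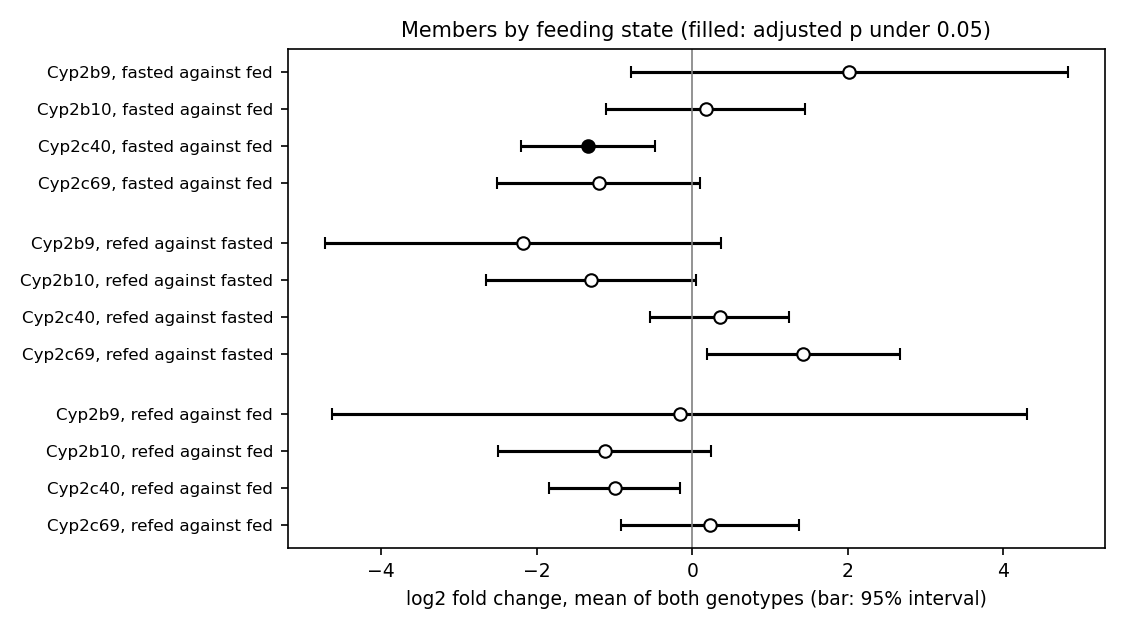
Log2 fold change between feeding states, averaged over genotypes, for the 4 members that were tested. Points are estimates from 36 mice, bars are 95% intervals before adjustment, and the filled point, Cyp2c40 in fasted against fed mice at -1.34, has an adjusted p under 0.05.

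Of the 11 other Cyp2c genes, 7 passed with fasting, or 63.6%, beside 43.8% of all genes. Of these, 5 were lower and 2 higher, where 23% and 20.8% of all genes were. Cyp2c70, which hydroxylates bile acids in mice, fell by 3.0 on the log2 scale (SE 0.18, adjusted p = 6.24e-15), and Cyp2c55 fell by 2.0 (SE 0.23, adjusted p = 8.82e-09). Cyp2c39 rose by 2.09 (SE 0.24, adjusted p = 4.77e-09) and Cyp2c38 by 1.59 (SE 0.20, adjusted p = 1.47e-07), all by edgeR. The family therefore held members that moved in either direction with the same fast. Cyp2b19 and Cyp2b23, the other Cyp2b genes in the table, did not pass the filter.

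Within groups, 2 of the 10 pairs of members varied together past the threshold. An extreme mouse can enlarge both such a correlation and the genotype differences by which the members were chosen. The calls are therefore not free of that choice. After subtracting the mean of each group from log2 CPM, Cyp2c40 and Cyp2c69 correlated over 36 mice with Pearson's r = 0.94 and Spearman's rho = 0.89, each with an adjusted p of 0.0001 by permuting mice within groups 100000 times, the smallest value that adjustment over 10 pairs of members allows. Without the 2 mice farthest from the median of Cyp2c40, MT_866 and MT_814, r was 0.90, and it was 0.84, 0.95 and 0.92 within the lower, middle and higher number series. The correlation was above 0 in 6 of 6 groups, from 0.73 to 0.99. This is the pair with the most 50-base words in common, and the part of shared reads in its correlation was not tested.

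Cyp2b9 and Cyp2b13 correlated with r = 0.68 (adjusted p = 0.0044, permutation) and rho = 0.52 (adjusted p = 0.022, permutation). Without mice MT_866 and WT_825 r was 0.46, and without mouse MT_866 alone it was 0.56 with an adjusted p of 0.0975 by permutation, so the call rested on that mouse. Within the lower, middle and higher number series r was 0.93, 0.99 and 0.40. Of the 10 pairs, 2 passed. Cyp2b10 with Cyp2b13 had r = 0.35 (adjusted p = 0.138, permutation), which passed without fed WT/Y657* mouse MT_868 (r = 0.42, adjusted p = 0.029, permutation), and Cyp2b10 with Cyp2b9 had r = 0.21 (adjusted p = 0.716, permutation). No Cyp2b gene correlated with a Cyp2c gene past the threshold, and without mouse MT_866 all 6 of those correlations were below 0. They were not alike between number series. In the higher-numbered series, which does not hold mouse MT_866, Cyp2b9 had r = 0.66 with Cyp2c40 and 0.79 with Cyp2c69. The other pairs across the families ranged there from -0.19 to 0.12. In the lower-numbered series all 6 were below 0, with -0.30 and -0.38 for Cyp2b9.

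**Figure D3:**
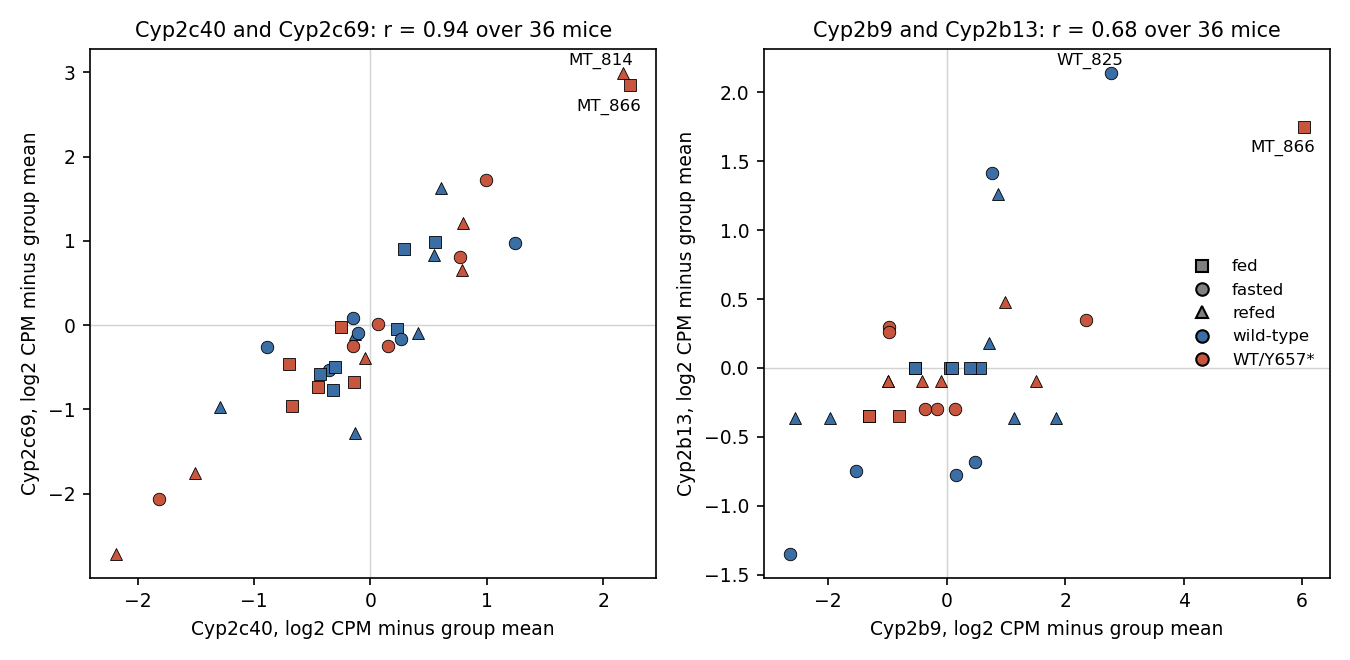
Log2 CPM minus the mean of the mouse's group for Cyp2c40 against Cyp2c69 and for Cyp2b9 against Cyp2b13. Each point is 1 of 36 mice, shaped by state and coloured by genotype; the Cyp2c pair forms 1 line over its whole range (r = 0.94), whereas mice MT_866 and WT_825 stand far from the rest in the Cyp2b pair (r = 0.68).

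Among all genes tested, those whose log2 CPM over the 36 mice was most like a member's differed from member to member. Cyp2b9 was most like Dnajc7, a co-chaperone (r = 0.76), Amotl2 (0.73) and Rbm22 (0.70), and Cyp2b13 was most like Cyp2b9 (0.77) and Dnajc7 (0.65). Cyp2b10 was most like Gsta1 (0.75), a glutathione transferase, Ctsd, a lysosomal protease (0.72), and H2-Q1 (0.67). After subtracting group means the r of Cyp2b10 was 0.83 with Gsta1, 0.86 with Ctsd and 0.73 with H2-Q1. That of Cyp2b9 was then 0.62 with Dnajc7, 0.43 with Amotl2 and 0.32 with Rbm22, and that of Cyp2b13 was 0.68 with Cyp2b9 and 0.50 with Dnajc7. Cyp2c40 was most like Cyp2c69 (0.90), Apba2 (0.67) and Tfpi2 (0.64), and Cyp2c69 was, after Cyp2c40, most like Cyp2c68 (0.78) and Gucy1b3 (0.64). After the same subtraction Cyp2c40 had 0.94 with Cyp2c69, 0.61 with Apba2 and 0.40 with Tfpi2. Cyp2c69 had 0.83 with Cyp2c68 and 0.26 with Gucy1b3. These values are descriptions, and the points share library, genotype and feeding state.

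The receptors known to act on these genes, and the partners of P450 enzymes, were compared next. Nr1i3, which encodes CAR, rose with fasting by 1.91 on the log2 scale (SE 0.20, adjusted p = 3.85e-09, edgeR) and had genotype differences of -0.47 (SE 0.28), -0.37 (SE 0.28) and -0.65 (SE 0.28) in fed, fasted and refed mice, with adjusted p = 0.398, 0.415 and 0.433 (edgeR). Rxra fell in fed WT/Y657* mice from 510 ± 32.6 to 411 ± 19.5 CPM (n = 6 each), by -0.31 (SE 0.06, adjusted p = 0.00736, edgeR), and did not pass in a fit to the fed libraries alone (adjusted p = 0.0667). It was 1 of 8 xenobiotic receptors and P450 partners that passed in the fed state, or 12.5%, beside 2.37% of all genes. In fasted mice 1 of 8 passed, near the share of 13.1% over all genes. That gene was Cyb5r3, a cytochrome b5 reductase, at -0.35 (SE 0.11, adjusted p = 0.0299, edgeR), which kept its call in 30 of 36 fits that each left out 1 mouse and lost it without any of wild-type mice WT_825, WT_918 and WT_919 or WT/Y657* mice MT_806, MT_827 and MT_923, with adjusted p up to 0.106. Nr1i2, Por and Hnf4a did not pass between genotypes in any state, with fasted differences of 0.25 (SE 0.11), 0.33 (SE 0.14) and 0.22 (SE 0.08) and adjusted p = 0.134, 0.122 and 0.0654 (edgeR).

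Other known targets of CAR and its relative PXR were lower, where they passed. Of 19 tested, 0 passed between genotypes in fed mice, and 4 passed in fasted mice, all lower in WT/Y657* mice, beside 6.63% of all genes lower. Abcc3, a bile salt exporter, fell from 445 ± 37.1 to 259 ± 71.8 CPM, by -0.78 (SE 0.18, adjusted p = 0.00396, edgeR). Ugt1a1, the bilirubin glucuronosyltransferase, fell from 566 ± 45.4 to 347 ± 121 CPM (adjusted p = 0.00418, edgeR), and Aldh1a1 fell by -0.84 (SE 0.22, adjusted p = 0.00945, edgeR). The fourth, named after its values were seen, was Cyp1a2 at -0.76 (SE 0.26, adjusted p = 0.0476, edgeR), which kept its call in 11 of 36 fits that each left out 1 mouse, with adjusted p up to 0.129. It also did not pass with scaling by library size alone (adjusted p = 0.0624) or in a fit to the fasted libraries alone (adjusted p = 0.0989, edgeR). The median log2 difference of the 19 was 0.13 in fed and -0.05 in fasted mice, beside 0.01 and 0.00 over all genes tested. Markers of pericentral hepatocytes, the zone that expresses many P450 genes, passed lower in 5 of 7 cases in the same fasted mice, among them Glul at -0.77 (SE 0.19, adjusted p = 0.00509, edgeR), Oat at -0.71 (SE 0.17, adjusted p = 0.00437, edgeR) and Lgr5 at -0.90 (SE 0.26, adjusted p = 0.0182, edgeR). Of 13 non-parenchymal and other cell markers, 2 were higher in these mice, beside 6.43% of all genes higher. They were Dcn of stromal cells, by 0.42 (SE 0.12, adjusted p = 0.0150, edgeR), and Lyve1 of endothelial cells, by 1.32 (SE 0.39, adjusted p = 0.0218, edgeR). Pecam1 and Stab2, also of endothelial cells, had 0.10 (SE 0.13) and -0.04 (SE 0.07), with adjusted p = 0.670 and 0.736 (edgeR). The sum of the 13 was 528 to 649 CPM in fasted wild-type and 531 to 779 in fasted WT/Y657* mice. The part of both marker lists in the result was not tested.

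In the growth hormone list, Stat5b fell in fasted WT/Y657* mice from 69.0 ± 7.66 to 51.0 ± 3.78 CPM (n = 6 each), by -0.43 (SE 0.08, adjusted p = 0.000475, edgeR). Ghr, the growth hormone receptor, fell by -0.43 (SE 0.12, adjusted p = 0.0166, edgeR) and Nr3c1, the glucocorticoid receptor, by -0.38 (SE 0.07, adjusted p = 0.00077, edgeR). Ghr no longer passed without fasted WT/Y657* mouse MT_806 (-0.39, adjusted p = 0.0517) or MT_827 (-0.36, adjusted p = 0.0538, edgeR). Igf1, a secreted target of the hormone, was higher by 0.25 (SE 0.09, adjusted p = 0.0493, edgeR), so that 4 of 14 genes passed in fasted mice, 3 lower and 1 higher, beside 6.63% and 6.43% of all genes. The Igf1 call in fasted mice held in 8 of 36 fits that each left out 1 mouse, with adjusted p up to 0.125. In fed mice 1 of 14 passed, Igf1 at 0.32 (SE 0.09, adjusted p = 0.0378, edgeR), which was not called without any of wild-type mice WT_847, WT_848, WT_849 and WT_850 or WT/Y657* mice MT_866, MT_868 and MT_869 in turn, with adjusted p up to 0.112. Bcl6, a repressor of female-type genes in males, had -1.96 (SE 0.50, adjusted p = 0.197, edgeR) in refed mice and did not pass in any state. The genotype difference of Stat5b itself differed between the fasted and the fed state, by -0.54 (SE 0.12, adjusted p = 0.00594, edgeR), as did that of 6 other listed genes, where 4.35% of all genes tested passed.

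Genes with the same female bias as 4 of the members were compared next. Of 25 listed, 13 could be tested and 12 were too low. In fed mice 3 of 13 passed, all higher in WT/Y657* mice, beside 1.21% of all genes higher. Cyp2a4, a female-type steroid hydroxylase, had a mean of 0.235 ± 0.258 CPM in wild-type livers and 29 ± 65.4 in WT/Y657* mice (n = 6 each), a log2 difference of 6.85 (SE 1.5, adjusted p = 0.0148, edgeR). A1bg had 3.98 (SE 1.12, adjusted p = 0.0498, edgeR), a call that held in 7 of 36 fits that each left out 1 mouse, and Ntrk2, a neurotrophin receptor, 2.67 (SE 0.61, adjusted p = 0.0196, edgeR). Without mouse MT_866, Cyp2a4 had 3.27 (SE 1.19, adjusted p = 0.186) and A1bg 1.94 (SE 1.0, adjusted p = 0.390), and Ntrk2 alone of the 13 passed, at 2.89 (SE 0.60, adjusted p = 0.0165, edgeR). Ntrk2 no longer passed without fed wild-type mouse WT_847 or WT_849 or WT/Y657* mouse MT_868, with adjusted p from 0.0547 to 0.0652 (edgeR).

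In fasted mice 2 of 13 female-biased genes passed, in opposite directions, a share of 15.4% beside 13.1% of all genes. Cux2, a female-type repressor, rose by 1.93 (SE 0.44, adjusted p = 0.00313) and Hamp2, a hepcidin gene, fell by 2.36 (SE 0.63, adjusted p = 0.0118, edgeR). Of 25 male-biased genes 5 passed in fasted mice, 4 higher and 1 lower, beside 6.43% and 6.63% of all genes. Mup20, a major urinary protein gene, rose from 2423 ± 823 CPM in wild-type livers to 5922 ± 2107 in those with the mutation (adjusted p = 0.00217, edgeR), and C6 rose by 0.71 (SE 0.18, adjusted p = 0.0078, edgeR). Cyp2u1 was the male-biased gene that fell, by -0.66 (SE 0.17, adjusted p = 0.011, edgeR). The other 2 that were higher, named after their values were seen, were Moxd1 at 4.98 (SE 1.59, adjusted p = 0.0347, edgeR) and Cspg5 at 1.43 (SE 0.44, adjusted p = 0.0258, edgeR). Without fasted WT/Y657* mouse MT_806 they had 2.41 (adjusted p = 0.449) and 1.03 (adjusted p = 0.139, edgeR), and they kept their calls in 29 and 30 of 36 fits that each left out 1 mouse. Fitted to the fasted libraries alone, Cux2, Hamp2, C6 and Cspg5 did not pass (adjusted p = 0.0597, 0.0601, 0.0515 and 0.108, edgeR). In refed mice 0 of 90 listed genes outside the marker lists passed by edgeR, and 1 by DESeq2's Wald test.

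Fed WT/Y657* mouse MT_866 was singled out after its values were seen, because it held the highest fed value of 4 of the 5 members. Of the 13 female-biased genes, 8 were at their highest in this mouse among the 12 fed mice and 1 at its lowest, and of the 25 male-biased genes 0 were highest and 18 lowest. Over all 13945 genes tested, 12.8% were highest and 12.3% lowest in it. Cyp2a4 was at 162 CPM, whereas the other 11 fed mice ranged from 0 to 6.85. Slc22a26 was at 14.3 CPM against 0.142 to 0.682, and A1bg at 12.2 against 0 to 1.51. Mup20 was at 1419 CPM against 3608 to 6485, Cyp7b1 at 120 against 220 to 726, and Hsd3b5 at 72.8 against 134 to 259. The sex-chromosome genes were within the range of the other fed mice. Non-parenchymal and other cell markers were also high, with 5 of 13 at their highest in this mouse, and their sum was 401 to 559 CPM in fed wild-type and 502 to 878 in fed WT/Y657* mice. Adipoq, Cela2a, Cpa1 and Prss2, markers of fat and pancreas, did not pass the filter on low counts in the fit to all 36 libraries. Of these, Cela2a passed it in the fit without mouse MT_866. The part of the other markers in the values of the members was not tested.

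**Figure D4:**
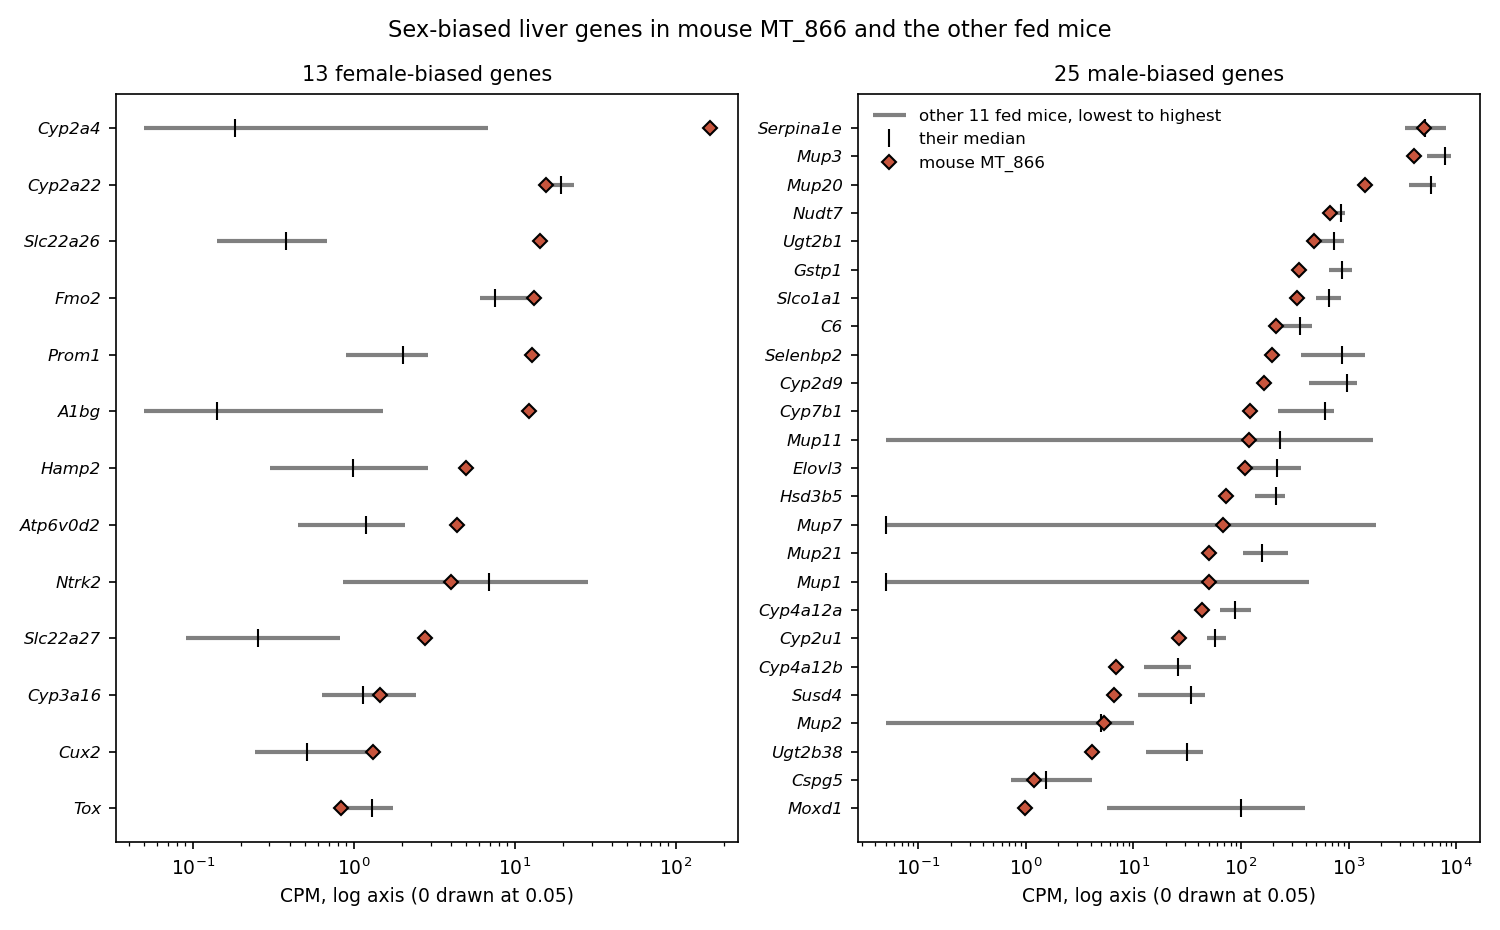
CPM (log axis) of 13 female-biased and 25 male-biased liver genes in fed WT/Y657* mouse MT_866 and in the other 11 fed mice. Diamonds are mouse MT_866, grey lines run from the lowest to the highest of the other mice and ticks are their median; 8 female-biased diamonds lie above the grey lines and 18 male-biased diamonds below them.

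Cyp2b10 was also high in some mice with high female-type members, although within groups it correlated with no other member past the threshold over all 36 mice. Mouse MT_866 had the third highest Cyp2b10 of the 36 mice, at 6.21 CPM, behind MT_827 and MT_868. WT_824 and WT_825, highest of the fasted wild-type mice for Cyp2b9 and Cyp2b13, were also highest of that group for Cyp2b10, at 2.72 and 2.68 CPM. Fasted WT/Y657* mouse MT_827 had the highest Cyp2b10 of all 36 mice, at 19.1 CPM, but no count of Cyp2b9 and the lowest Cyp2c40 and Cyp2c69 of its group, at 0.912 and 0.491 CPM. Of 19 CAR and PXR targets, 5 were at their highest of the 12 fasted mice in mouse MT_827, beside 13.3% of all genes. Gsta1 was at 23.2 CPM in it, against 0.922 to 6.44 in the other 11 fasted mice, Gstm3 at 96.8 against 3.23 to 11.9, and Cyp3a11, the main PXR target, at 6517 against 2779 to 5371. Of the 13 female-biased genes, 6 were at their highest in this mouse and 1 at its lowest, and of the 25 male-biased genes 0 were highest and 8 lowest, beside 13.3% and 11% of all genes. Of 7 pericentral markers 4 were at their lowest, and of the 13 non-parenchymal and other markers 6 were at their highest, and their part in its values was not tested. Cyp1a2 was at its lowest there, at 57.3 CPM against 85.2 to 252. Fed WT/Y657* mouse MT_868, with the highest fed Cyp2b10, also had 5 of the 19 at their highest of 12, beside 9.13% of all genes, among them Gsta1 at 25.7 CPM against 0.841 to 20 and Cyp3a11 at 5225 against 2085 to 4054. Mouse MT_868 had no count of Cyp2b9 or Cyp2b13. These mice were also chosen after their values were seen.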

How the data were processed

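Total RNA from snap-frozen liver was made into stranded libraries and read as single 50-base reads. The authors deposited estimated counts per gene and mouse, not normalized, of which 3.64% of those above 0 were not whole, and these were rounded here. Per the labels, Cuffdiff, SAMtools, featureCounts and edgeR were used, without versions. The labels name mm9 and their protocol human genes, but 99.7% of 36341 loci overlap the same mouse gene in GENCODE M21 (GRCm38), so GRCm38 was used. The authors also gave fitted counts from their own model, which were not used here.

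Counts were fitted in R 4.3.3 with edgeR 4.0.16 over all 36 libraries (filterByExpr, 13945 genes; TMM; robust glmQLFit, 1 coefficient per group). Tests were two-sided with Benjamini-Hochberg adjustment over all genes and a threshold of 0.05. DESeq2 1.42.0 was an alternative. Correlations used numpy 2.4.6, log2 CPM with a prior count of 2 and permutation within groups. Alignments used Biopython 1.88. The fit was tried on counts simulated with the same spread for every gene, and the permutation test on normally distributed values. The 4 members tested varied more between mice than 98.9% to 99.9% of genes tested. These simulations therefore do not show how the tests behave for the members.

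Members and gene lists were chosen with earlier results of these data known. Named genes were the members, 8 fixed regulators, up to 3 called genes per list with the smallest p, the other Cyp2b and Cyp2c genes, and the 3 genes most like each member, of which 1 is not reported here. Mouse numbers are unique, and p-values cover the spread between these mice. Counts of any 2 mice of a group differed by more than sampling noise (chi-square over degrees of freedom of at least 7.00), so no library was counted as a duplicate. Counting intervals and floors cover counting error only.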

Additional observations from a re-analysis of the deposited data

Results flagged for a closer look

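In 8 of 29 groups of 6 mice with any spread, 1 mouse stood apart from the other 5 on log2 CPM, the gap to its neighbour taking more of the group's range than Dixon's critical value allows. That value is set to be passed by about 1 group in 20 of independent, normally distributed values. The rate does not apply here, so the count is a description. The members were chosen for large genotype differences, which 1 extreme mouse can create, and the same mouse recurs among these groups. Mouse MT_866 of the fed WT/Y657* group was the highest for Cyp2b9 (gap over range 0.930), Cyp2b13 (1.0), Cyp2c40 (0.809) and Cyp2c69 (0.754). In fasted WT/Y657* mice, mouse MT_921 stood apart for Cyp2b9 (0.668), from 16 counts, and mouse MT_827 for Cyp2b10 (0.706), from 272 counts. For Cyp2b13, refed wild-type mouse WT_828 (0.667) rested on 3 counts and refed WT/Y657* mouse MT_897 (1.0) on 1 count.

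Of 126 listed genes tested outside the members, 7 had a genotype difference that changed between the fed and the fasted state, a share of 5.56% beside 4.35% of all genes tested. Values are the fasted minus the fed log2 difference (edgeR's quasi-likelihood test, Benjamini-Hochberg). The signaling factor Stat5b had -0.54 (SE 0.12, adjusted p = 0.00594) and the pericentral enzyme gene Oat -1.11 (SE 0.24, adjusted p = 0.00655). C6 had 1.02 (SE 0.25, adjusted p = 0.0167), Mup20 1.52 (SE 0.39, adjusted p = 0.021) and Hnf4a 0.41 (SE 0.12, adjusted p = 0.0333). Slc22a26 had -4.15 (SE 1.17, adjusted p = 0.0363) and Hamp2 -2.90 (SE 0.86, adjusted p = 0.0471). Fed and fasted mice came from different number series. Mouse MT_866 had the highest Slc22a26 and Hamp2 and the lowest Mup20 and C6 of the 12 fed mice. Without it, a setting added after seeing the data, Slc22a26 had -1.14 (adjusted p = 0.431) and Hamp2 -2.39 (adjusted p = 0.101), neither of which passed. Mup20, C6, Stat5b, Oat and Hnf4a still passed without it, Mup20 at 1.33 (adjusted p = 0.0209) and C6 at 0.94 (adjusted p = 0.0307), and 3 other listed genes, Cyp2u1, Cyp3a13 and Cyb5r3, passed in addition, 8 of 127 in all.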

How the results depend on the processing

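With the main settings 1 of 4 members passed between fasted and fed mice, 0 between refed and fasted and 0 between refed and fed, and 5, 17 and 0 of 90 listed genes passed between genotypes in fed, fasted and refed mice. For refed against fasted and refed against fed, DESeq2's Wald test, the likelihood ratio test and dispersions without robust fitting each gave 1 and 1. For listed genes in fed mice DESeq2 gave 9, the likelihood ratio test 8, library size alone 8 and the fit to fed libraries alone 0, and in refed mice DESeq2 gave 1. Leaving out each mouse in turn gave 1 to 1, 0 to 2 and 0 to 1 members, 2 to 10, 11 to 22 and 0 to 0 listed genes, 9 to 10 of 12 fitted genotype differences above 0 (10 with all mice), and 1 to 3 correlated pairs. Log2 changes whose sign turned when a mouse was left out ranged from -1.05 to 0.61 for Cyp2b10 with fasting, from -0.53 to 3.57 for Cyp2b9 and from -0.33 to 0.92 for Cyp2c69 in refed against fed mice. Genotype differences whose sign turned ranged from -1.99 to 5.77 for Cyp2b9 in fed mice, and for Cyp2b10 from -0.97 to 1.84 in fasted and from -0.26 to 0.37 in refed mice. Between number series the sign also turned for Cyp2b10, to -0.67 in fasted mice of the higher-numbered and -0.62 in refed mice of the lower-numbered series. Counts of Cyp2c40 and Cyp2c69 summed had -0.48 (refed against fed) in place of 0.23 for Cyp2c69. The cause was not tested. Number series was fitted as a covariate for fasted and refed mice only. No paired analysis was possible because each mouse number occurs in 1 group only. Most members were at few counts, so values near 0 were limited by depth. Settings without mouse MT_866 were partly chosen after seeing the data.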

Other observations

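Fasted wild-type mouse WT_825, which had the highest Cyp2b9 and Cyp2b13 of its group from the smallest library (8839481 counts), was also at the edge of the fasted mice for sex-biased genes. Of the 13 female-biased genes, 4 were at their highest of the 12 fasted mice in it, and of the 25 male-biased genes 0 were highest and 10 lowest, beside 8.27% and 8.86% of all genes tested. Of the other Cyp2c genes, 5 of 11 were at their highest in it, whereas its Cyp2c40, at 0.698 CPM, was the lowest of all 12 fasted mice. Refed WT/Y657* mouse MT_814, with the highest refed Cyp2c40 and Cyp2c69, had 3 of 13 female-biased genes at their highest of 12 and 1 of 25 male-biased genes, beside 6.08% of all genes. At their lowest in it were 1 of the 13 female-biased and 2 of the 25 male-biased genes, beside 6.35% of all genes.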
